A study of Mus musculus with 6 samples.

Results

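The data are RNA sequencing profiles of mouse small intestine, read here for Grm4, a metabotropic glutamate receptor gene, and for 7 enzymes of glutamate and glutamine metabolism: Glul, Glud1, Got1, Got2, Gpt, Oat and Aldh18a1. These 8 genes were matched by symbol among the 54012 genes of the deposited table, and each had a single entry. Grm4 was chosen by its rise in these same libraries, so its difference is given as a description with no test. The 7 enzymes stand for steps of the pathway. The samples were total RNA from 3 mice labelled TLR4ΔIEC and 3 labelled wild type (WT), all aged 8 to 12 weeks and labelled "intestinum". The series title speaks of depleting TLR4, the receptor for bacterial lipopolysaccharide, in the intestine. The driver of the deletion, the strain and the stretch of small intestine are not given in the sources used here. Values are in TPM, a transcript abundance corrected for transcript length and scaled to the same total in every library, so levels can be set side by side between genes but depth is unknown.

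Glutamine and glutamate are major fuels of the absorptive cells of the small intestine. Glutamine synthetase (Glul) makes glutamine from glutamate. Glutamate dehydrogenase (Glud1) and the aminotransferases Got1, Got2 and Gpt pass its carbon to the citric acid cycle and its nitrogen to ammonia, aspartate or alanine, while Aldh18a1 and Oat link it to proline, ornithine and citrulline. Grm4 encodes a group III receptor that couples to inhibitory G proteins and is best known at presynaptic terminals in the brain.

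Tlr4 itself, the targeted gene, stood at 1.29, 1.22 and 4.81 TPM in libraries labelled TLR4ΔIEC, against 0.65, 0.57 and 0.70 TPM in those labelled WT. The labelled deletion was therefore not seen as a lower level of Tlr4, and the log2 fold change of 0.92 did not pass the test (limma adjusted p = 0.243). Directions below compare libraries by their labels. The second library labelled TLR4ΔIEC stood apart, with 12221 genes reaching 1 TPM, compared with 13197 to 13634 elsewhere, and with the 18S ribosomal RNA gene Rn18s at 12836 TPM against 3806 to 7032 TPM. Over all 13458 genes tested, those with a mean of at least 1 TPM, the median log2 fold change was 0.16. It lay between −0.13 and 0.03 under 4 other scalings, so small positive differences in TPM depend on the scaling.

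Grm4 (ENSMUSG00000063239, chromosome 17, 27422387 to 27521403, minus strand, GRCm38) stood at 4.12, 3.62 and 4.79 TPM in libraries labelled TLR4ΔIEC. It stood at 0.25, 0.29 and 0.23 TPM in those labelled WT. The groups did not overlap, and the lowest library labelled TLR4ΔIEC lay far above the highest labelled WT. The means were 4.18 ± 0.587 TPM and 0.257 ± 0.0306 TPM (SD, n = 3 each), a ratio of 16.3. As log2(TPM + 1), where the added 1 TPM shrinks the change of a low gene, the difference was 2.04. The gene passed the filter of 1 TPM only through the libraries labelled TLR4ΔIEC. Its spread within a genotype was narrow: the second library labelled TLR4ΔIEC, low in many genes, was the lowest of its group for Grm4 too, but not apart from it. Of the annotated neighbours that overlap the gene Gm49789 was listed at 0.23 TPM in 1 library and at 0 in the other 5, and Gm49790 was at 0 in each.

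Grm4 was also set against the other receptors for glutamate and related amino acids. Among 11 other metabotropic, calcium-sensing and taste receptor genes, the highest value in any library was 0.91 TPM, of Tas1r3, a subunit of the umami and sweet receptors. None of the 11 reached the filter, so none was tested. Tas1r3 stood at 0.43, 0.91 and 0.52 TPM in libraries labelled TLR4ΔIEC, against 0.37, 0.31 and 0.37 TPM in those labelled WT. Grm8, of the same receptor group as Grm4, stood at 0.06, 0.05 and 0.12 TPM, against 0.04, 0 and 0.01 TPM. Both were a little higher in each library labelled TLR4ΔIEC, at levels where TPM are coarse. Grm6, another group III receptor, was at or under 0.12 TPM in every library.

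Among 18 glutamate-gated channel genes the highest value was 1.76 TPM. It belonged to Grik5, a kainate receptor subunit and the single gene of that list above the filter. Grik5 stood at 1.55, 0.59 and 1.76 TPM in libraries labelled TLR4ΔIEC, against 1.71, 0.85 and 1.02 TPM in those labelled WT, so its groups overlapped. Grin2d, an NMDA receptor subunit, stood at 0.24, 0.37 and 0.24 TPM, against 0.86, 0.67 and 0.47 TPM. Grin3b, another NMDA subunit, stood at 0.07, 0.63 and 0.15 TPM, against 0.06, 0.01 and 0.06 TPM. Grm4 was thus the highest of these receptor genes in each library labelled TLR4ΔIEC, while in each library labelled WT it lay below Grik5, Tas1r3, Grin2d and others.

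**Figure D1:**
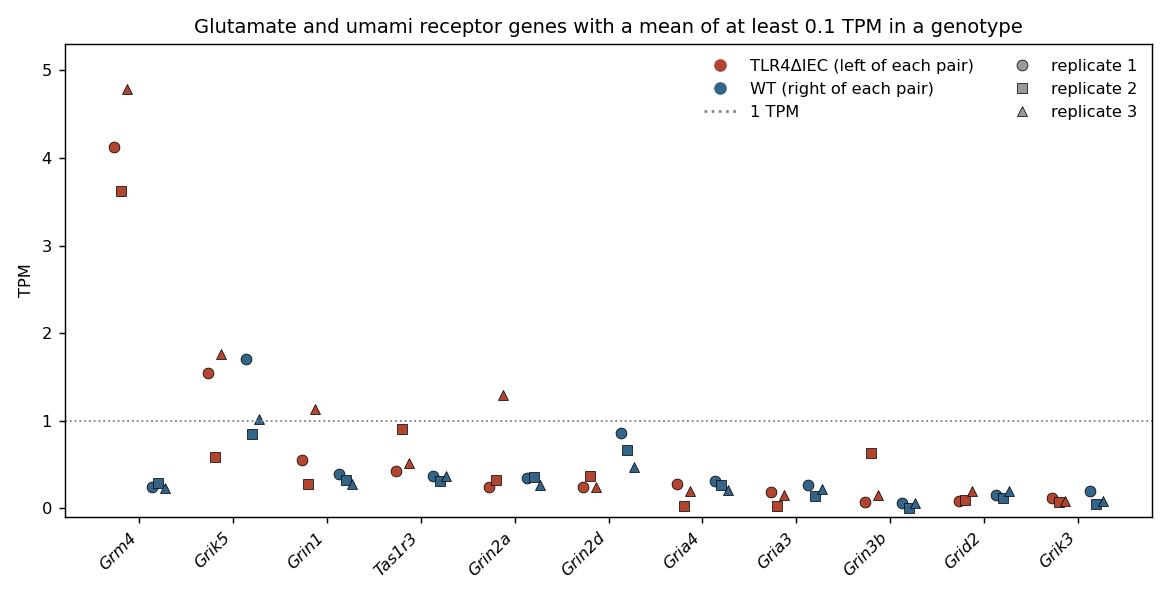
Level in TPM of Grm4 and of the other glutamate, calcium-sensing and taste receptor genes that averaged at least 0.1 TPM in a genotype, with the 3 libraries labelled TLR4ΔIEC to the left of the 3 labelled WT for each gene. Grm4 sits between 3.62 and 4.79 TPM in libraries labelled TLR4ΔIEC, above every other point, and between 0.23 and 0.29 TPM in those labelled WT.

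Genes that act downstream of such a receptor spanned a wide range of levels. In libraries labelled TLR4ΔIEC, Gnai1, Gnao1, Adcy3, Adcy5 and Rgs4 averaged less than Grm4, while Gnai2 and Gnb1 averaged 221.3 and 411.0 TPM. Of 10 tested genes for inhibitory G protein signalling, 4 did not overlap between genotypes, all higher, against 24.1% of all tested genes that did so in that direction and 3.53% in the other. None passed the test. Gnai2, an inhibitory alpha subunit, stood at 213.5, 217.6 and 232.8 TPM in libraries labelled TLR4ΔIEC, against 178.6, 145.1 and 138.1 TPM in those labelled WT (log2 fold change 0.53, limma adjusted p = 0.127). Gnb1, a beta subunit, stood at 349.3, 447.7 and 435.9 TPM, against 261.0, 263.8 and 271.0 TPM (log2 fold change 0.62, limma adjusted p = 0.111, and 0.0470 without the first library labelled TLR4ΔIEC). Adcy8, an adenylate cyclase, had a log2 fold change of 0.44, and Pick1, a scaffold protein that binds glutamate receptors, of 0.26, which turned to −0.04 without alpha-defensin, mitochondrial and Rn18s genes. The list's median was 0.21, beside 0.16 for all genes.

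By Pearson correlation of log2(TPM + 1) over the 6 libraries, the genes most like Grm4 were Mcl1 (r = 0.994), an anti-apoptotic protein, Tango2 (0.992), Gdpgp1 (0.991), Ahdc1 (0.991) and Ereg (0.990), an EGF receptor ligand. All 6 points share the split by genotype, and 808 of 11977 genes had an r of at least 0.9, so the ranking separates these 5 from many others only slightly. Ereg stood at 9.37, 7.20 and 9.62 TPM in libraries labelled TLR4ΔIEC, against 3.56, 3.52 and 3.39 TPM in those labelled WT. Mcl1 averaged 100.1 ± 4.57 TPM and 64.8 ± 0.978 TPM (SD, n = 3 each). That the 5 genes shared with Grm4 the order of the 2 genotypes follows from how they were ranked. Their ratios of means were smaller, from 1.42 for Gdpgp1 to 2.50 for Ereg.

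Of the 7 enzymes, none passed the test over all genes, where 0.119% of genes did (16 genes, 6 higher and 10 lower, and 3 higher against 15 lower under median-of-ratios scaling). The count of 16 was 0 without the second library of either genotype, 3 without the third labelled WT, 5 without the third labelled TLR4ΔIEC, 32 without the first labelled WT and 367 without the first labelled TLR4ΔIEC. Glud1 alone of the 7 had libraries that did not overlap, at a lower level, as did 3.53% of all tested genes, while 24.1% did so at a higher level. These shares, here and elsewhere, are for TPM as deposited and depend on the scaling. On TPM as deposited limma gave 2847 of 13458 genes at an unadjusted p under 0.05. Without alpha-defensin, mitochondrial and Rn18s genes it gave 1630 of 14073. At an unadjusted p under 0.05, limma gave 1 of the 7, again Glud1, beside 18.4% of all genes as higher and 2.77% as lower. The median log2 fold change of the 7 was 0.10.

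Glud1 (ENSMUSG00000021794, chromosome 14, 34310727 to 34345265, plus strand), the mitochondrial enzyme that oxidises glutamate to 2-oxoglutarate and ammonia, stood at 88.4, 114.0 and 81.8 TPM in libraries labelled TLR4ΔIEC. It stood at 137.2, 231.4 and 164.5 TPM in those labelled WT. Each library labelled TLR4ΔIEC lay below each labelled WT, with a gap smaller than the spread within WT. The means were 94.7 ± 17.0 TPM and 177.7 ± 48.5 TPM (SD, n = 3 each), a ratio of 0.533. In log2 fold change this was −0.88 (SE 0.23), which missed the threshold (limma adjusted p = 0.115). It stayed negative and past no threshold under all 17 alternatives, from −1.21 to −0.67, with adjusted p from 0.0614 to 0.377.

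**Figure D2:**
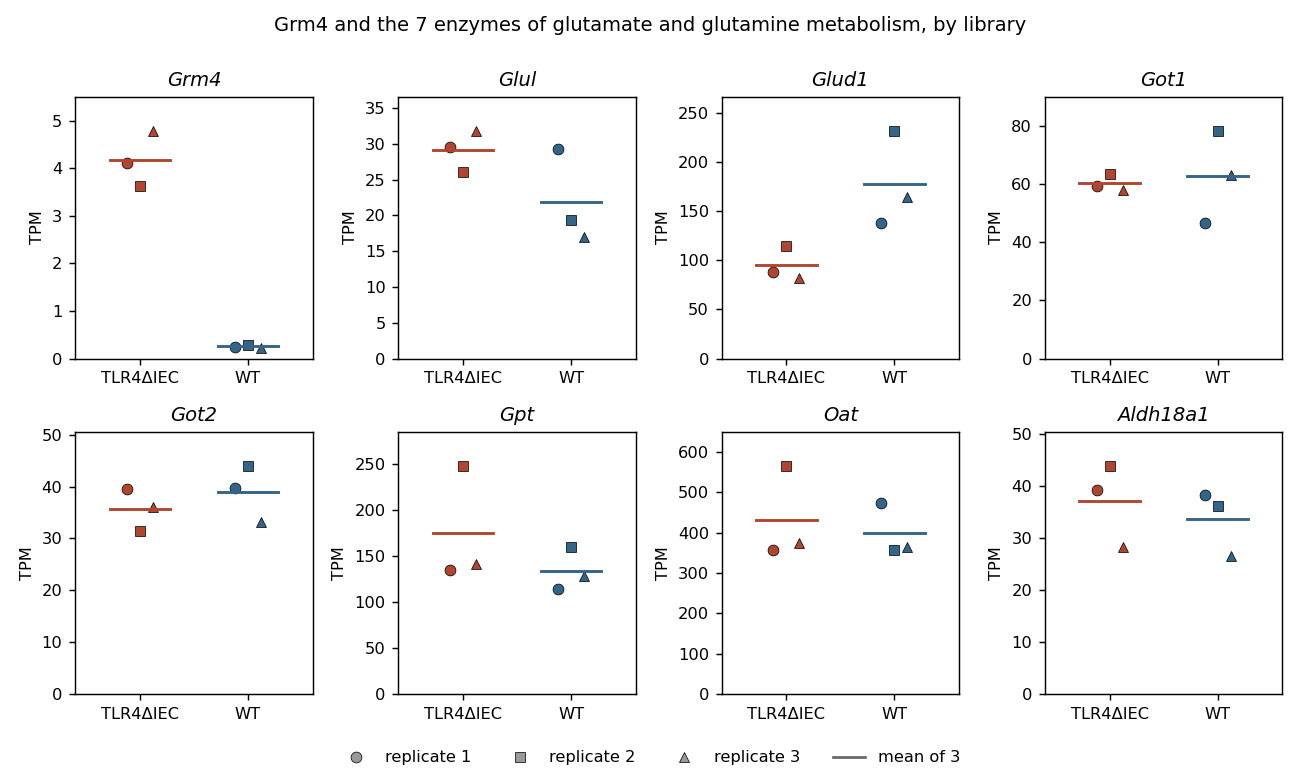
Level in TPM of Grm4 and the 7 enzymes, with a panel for each gene, an axis from 0, 3 libraries labelled TLR4ΔIEC on the left, 3 labelled WT on the right and lines at the means. Grm4 and Glud1 are the genes whose points do not overlap: Grm4 averaged 4.18 TPM against 0.257 TPM and Glud1 94.7 TPM against 177.7 TPM.

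Glul (ENSMUSG00000026473, chromosome 1, 153899944 to 153909723, plus strand), which makes glutamine from glutamate and ammonia, stood at 29.5, 26.0 and 31.8 TPM in libraries labelled TLR4ΔIEC. It stood at 29.3, 19.3 and 16.96 TPM in those labelled WT. The first library labelled WT lay inside the range of the other genotype, so the groups overlapped (log2 fold change 0.43, 95% interval −0.08 to 0.94, limma adjusted p = 0.302). Glul shares 116 exonic bases with Teddm2 on the other strand, which was at or under 0.13 TPM in every library.

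Got1 (ENSMUSG00000025190, chromosome 19, 43499752 to 43524605, minus strand), the cytosolic form, stood at 59.3, 63.7 and 58.0 TPM in libraries labelled TLR4ΔIEC, against 46.5, 78.4 and 63.2 TPM in those labelled WT. The libraries labelled TLR4ΔIEC lay within the range of the others, and the log2 fold change was −0.02 (95% interval −0.49 to 0.45, limma adjusted p = 0.959). Got2 (ENSMUSG00000031672, chromosome 8, 95864134 to 95888547, minus strand), the mitochondrial form, stood at 39.5, 31.5 and 36.0 TPM, against 39.7, 43.9 and 33.1 TPM (log2 fold change −0.12, 95% interval −0.49 to 0.26, limma adjusted p = 0.710). These intervals leave room for changes of up to about 0.5 on the log2 scale in either direction for Got1, and in the negative direction for Got2.

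The start regions of Glud1 and Got1 are shown because, on TPM as deposited, these enzymes had the largest and smallest difference between genotypes. Under each of the 4 other scalings Glud1 still had the largest difference, but Got1 did not have the smallest. Aldh18a1 had the smallest under median-of-ratios scaling and without the 20 highest genes. Gpt had the smallest under quantile normalization and without alpha-defensin, mitochondrial and Rn18s genes. RefSeq entries of 300 bases (GRCm38.p6) were found for 6 of the 8 genes, all but Grm4 and Gpt. In capitals are the matches, on either strand, to the CCAAT box, to the GC box with the letters GGGCGG, and to the amino acid response motif with the letters TGATGNAA, known as bound by ATF4 complexes. The Glud1 entry is chr14:34310477-34310776, plus strand, and the Got1 entry is chr19:43524556-43524855, minus strand.
Glud1: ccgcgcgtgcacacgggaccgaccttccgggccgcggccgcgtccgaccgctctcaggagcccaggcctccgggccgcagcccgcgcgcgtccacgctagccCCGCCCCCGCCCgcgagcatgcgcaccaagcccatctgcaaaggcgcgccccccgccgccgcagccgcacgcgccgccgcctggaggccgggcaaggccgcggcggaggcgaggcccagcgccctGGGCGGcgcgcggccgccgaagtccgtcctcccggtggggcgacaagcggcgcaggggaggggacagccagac
Got1: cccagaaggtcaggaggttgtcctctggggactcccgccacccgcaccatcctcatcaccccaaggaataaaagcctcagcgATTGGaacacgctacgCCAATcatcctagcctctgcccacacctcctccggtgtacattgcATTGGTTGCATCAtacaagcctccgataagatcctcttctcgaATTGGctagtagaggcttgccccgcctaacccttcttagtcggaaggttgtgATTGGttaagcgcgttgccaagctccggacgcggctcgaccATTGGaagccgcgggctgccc
The Glud1 region has 81.0% G and C, 3 GGGCGG matches, of which 2 adjoin, and none of the other motifs. The Got1 region has 57.3% G and C, 6 CCAAT matches, 1 TGATGNAA match that adjoins a CCAAT match, and no GGGCGG. Of all 32851 such regions, 37.4% hold CCAAT, 35.7% GGGCGG and 3.97% TGATGNAA. Among the other 4 enzymes, Glul and Oat hold 2 CCAAT matches each, Aldh18a1 and Got2 none, and TGATGNAA is found in none of the 4. These are matches of letters and not measured binding.

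Gpt (ENSMUSG00000022546, chromosome 15, 76695716 to 76699686, plus strand), the alanine aminotransferase of the cytosol, stood at 134.0, 247.2 and 141.3 TPM in libraries labelled TLR4ΔIEC. It stood at 113.8, 159.4 and 128.5 TPM in those labelled WT. The second library labelled TLR4ΔIEC, which stood apart in other genes, carried most of the difference, and the groups overlapped (log2 fold change 0.33, limma adjusted p = 0.512). Its mitochondrial counterpart Gpt2 was far lower, at 2.33, 1.89 and 2.30 TPM, against 3.22, 3.08 and 2.66 TPM, and did not overlap, at a lower level (log2 fold change −0.33, limma adjusted p = 0.345).

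Oat (ENSMUSG00000030934, chromosome 7, 132557478 to 132576398, minus strand), which interconverts ornithine and glutamate semialdehyde, was the highest of the 8 genes in every library. It stood at 358.0, 564.6 and 374.0 TPM in libraries labelled TLR4ΔIEC, against 474.0, 356.8 and 364.3 TPM in those labelled WT. The groups overlapped, and the log2 fold change of 0.10 (limma adjusted p = 0.844) turned negative under 4 other scalings. Oat lies inside the annotated span of Fgfr2 on the same strand but shares no exonic base with it. Fgfr2 was listed at 219.8, 601.0 and 341.5 TPM, against 399.0, 264.0 and 161.1 TPM, with its highest library in each genotype the same as that of Oat. Whether reads were split between them was not tested.

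Aldh18a1 (ENSMUSG00000025007, chromosome 19, 40550257 to 40588463, minus strand), which starts proline and ornithine synthesis from glutamate, stood at 39.3, 43.8 and 28.2 TPM in libraries labelled TLR4ΔIEC, against 38.2, 36.2 and 26.6 TPM in those labelled WT. The third library was the lowest of each genotype, and the groups overlapped (log2 fold change 0.13, limma adjusted p = 0.771), with a direction that turned negative under the same 4 scalings. A processed pseudogene inside it, Gm15801, was listed at 12.5, 5.01 and 0.18 TPM, against 6.45, 6.67 and 7.63 TPM. Pseudogenes named for Glul, Glud1 and Got2 were at or under 0.04 TPM in every library.

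The order of the members' mean TPM was Oat, Gpt, Glud1, Got1, Aldh18a1, Got2, Glul and Grm4 in the libraries labelled TLR4ΔIEC. In those labelled WT it was Oat, Glud1, Gpt, Got1, Got2, Aldh18a1, Glul and Grm4. Glud1 and Gpt thus stood in opposite order: Gpt was above Glud1 in all 3 libraries labelled TLR4ΔIEC and below it in all 3 labelled WT. The ranges of Gpt and Glud1 did not overlap in the libraries labelled TLR4ΔIEC but did in those labelled WT. Among Aldh18a1, Got2 and Glul, neighbours in the order overlapped in their ranges in both genotypes. Within libraries, Aldh18a1 was above Got2 in 1 of 3 labelled TLR4ΔIEC, whereas Got2 was above Glul in 3 of 3. In those labelled WT, Got2 was above Aldh18a1, and Aldh18a1 above Glul, in 3 of 3.

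A factor common to all genes of a library cancels in a ratio within it, but quantile normalization does not. Ratios of paired enzymes were compared by exact two-sided permutation tests, with p-values adjusted over the 5 ratios computed, of which 4 are given. With 3 libraries a genotype the smallest p such a test can give is 0.1. The log2 ratio of Gpt to Gpt2 was 5.85, 7.03 and 5.94 in the libraries labelled TLR4ΔIEC, against 5.14, 5.69 and 5.59 in those labelled WT. These did not overlap, and the difference of 0.80 had an exact p of 0.1 (adjusted p = 0.5). Under quantile normalization it was 0.45. The log2 ratio of Glud1 to Got2 was 1.16, 1.86 and 1.19, against 1.79, 2.40 and 2.31, so that 1 library of each genotype crossed over (difference −0.77, exact p = 0.2, adjusted p = 0.5).

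The remaining ratios differed less. The ratio of Got1 to Got2 differed by 0.10 and that of Oat to Aldh18a1 by −0.04 on the log2 scale, each within the spread between libraries (adjusted p = 0.9 for each, exact permutation tests). Both differences changed sign when single libraries were left out.

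**Figure D3:**
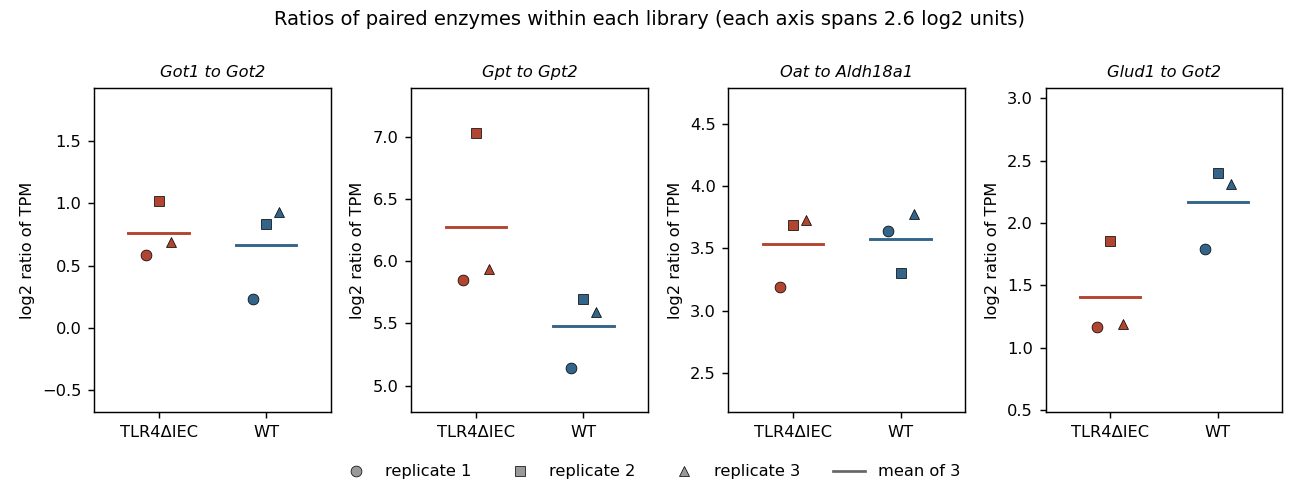
Log2 ratio of TPM of 4 enzyme pairs within each library, with the 3 libraries labelled TLR4ΔIEC left of the 3 labelled WT, lines at the means and axes of equal span. The ratio of Gpt to Gpt2 is the one whose points do not overlap, with means of 6.27 and 5.48, and the ratio of Glud1 to Got2 averaged 1.40 and 2.17.

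Beyond the 8 genes, 10 lists of neighbouring steps, the receptors and G protein genes above among them, were read in the same fit. With limma no gene of any list passed the threshold. At an unadjusted p under 0.05, limma gave 4 glutathione genes, 2 transporters, 2 genes of glutamine amide nitrogen, 1 aminotransferase, 1 shuttle gene and 2 G protein genes, all higher, where 18.4% of all tested genes were. It gave 2 higher and 2 lower in each of the proline and ATF4 lists, and 0 among the receptors, where 2.77% of all genes were lower. Of 10 tested glutathione genes, 9 had positive fold changes, as had 68.1% of all genes, and 4 did not overlap, all higher (24.1% of all tested genes did so). Their median was 0.34, beside 0.16 for all genes. Ggt6, a gamma-glutamyl transferase family member, stood at 28.1, 35.5 and 31.0 TPM in libraries labelled TLR4ΔIEC, against 19.8, 18.0 and 18.8 TPM in those labelled WT (log2 fold change 0.71, limma adjusted p = 0.0939). Ggt1, which cleaves glutathione at the brush border and releases glutamate, stood at 515.9, 711.1 and 493.2 TPM, against 382.5, 404.5 and 362.8 TPM (log2 fold change 0.56, limma adjusted p = 0.162). Gclm, the modifier subunit of the enzyme that joins glutamate to cysteine, had a log2 fold change of 0.67, and Gss, glutathione synthetase, of 0.59 (limma adjusted p = 0.129 and 0.150). Without the first library labelled TLR4ΔIEC, Gclm passed (limma adjusted p = 0.0463). Under each of the 4 other scalings the fold changes of these 4 genes remained positive.

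Of 9 tested transporters of glutamate, aspartate and glutamine, 8 had positive fold changes (68.1% of all genes had), 1 did not overlap, at a higher level (24.1% of all genes), and the median was 0.23. That gene was Slc1a1, the main glutamate and aspartate carrier of the brush border. It stood at 59.6, 73.8 and 103.2 TPM in libraries labelled TLR4ΔIEC, against 47.5, 31.2 and 42.2 TPM in those labelled WT (log2 fold change 0.94, SE 0.24, limma adjusted p = 0.115). Its ratio of means was 1.96. Slc17a8, a vesicular glutamate transporter, was not tested because its mean lay below 1 TPM, and stood at 0.97, 1.28 and 1.65 TPM, against 0.47, 0.09 and 0.13 TPM. Slc6a19, the neutral amino acid carrier that takes up glutamine, averaged 260.3 ± 24.9 TPM and 222.1 ± 25.1 TPM (SD, n = 3 each), and its log2 fold change of 0.23 turned negative under quantile normalization and without alpha-defensin, mitochondrial and Rn18s genes.

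Of the genes for enzymes that use the amide nitrogen of glutamine, 13 were tested, 6 positive and 7 negative (68.1% of all genes were positive). Their median was −0.09. Asns, asparagine synthetase, stood at 21.8, 13.6 and 9.01 TPM in libraries labelled TLR4ΔIEC, against 17.2, 28.5 and 17.3 TPM in those labelled WT, so its groups overlapped (log2 fold change −0.52, limma adjusted p = 0.415). Gfpt1, which starts hexosamine synthesis, and Nadsyn1, an NAD synthetase, did not overlap and were higher, as were 24.1% of all tested genes. Their log2 fold changes were 0.40 and 0.42 (limma adjusted p = 0.227 and 0.170). Among 7 tested aminotransferases besides the members, the median was −0.16. Tat, tyrosine aminotransferase, stood at 4.52, 3.38 and 14.5 TPM, against 2.10, 0.66 and 0.77 TPM (log2 fold change 1.79, SE 0.50, limma adjusted p = 0.126). Abat, which moves the amino group of GABA, had a log2 fold change of 0.51.

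Between glutamate, proline, ornithine and arginine, 14 genes were tested, 5 positive and 9 negative (68.1% of all genes were positive). Their median was −0.09, beside 0.16 for all genes. Pycr1, a mitochondrial enzyme of the last step of proline synthesis, stood at 3.89, 1.32 and 1.61 TPM in libraries labelled TLR4ΔIEC, against 6.11, 5.48 and 5.18 TPM in those labelled WT. Its groups did not overlap (log2 fold change −1.09, SE 0.30, limma adjusted p = 0.121), and without the first library labelled TLR4ΔIEC it passed, at −1.42 with an adjusted p of 0.0339. Asl, argininosuccinate lyase, had a log2 fold change of 0.39 without overlap. Cps1, which uses ammonia for citrulline synthesis in enterocytes, stood at 155.5, 84.5 and 62.2 TPM, against 126.7, 153.2 and 123.9 TPM, so its groups overlapped.

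Of the partners of Got1 and Got2 in the malate-aspartate shuttle, 5 were tested, with a median of 0.10. Slc25a13, a mitochondrial aspartate-glutamate carrier, stood at 9.51, 12.9 and 12.8 TPM in libraries labelled TLR4ΔIEC, against 8.88, 7.04 and 7.09 TPM in those labelled WT (log2 fold change 0.55, limma adjusted p = 0.158). The malate dehydrogenases Mdh1 and Mdh2 had log2 fold changes of 0.01, which changed sign under other scalings, and −0.30.

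The last list held ATF4, a transcription factor that responds to amino acid shortage, with genes it is known to drive, such as Asns and Pycr1. Of 15 tested, Atf4 included, 4 had positive and 11 negative fold changes (68.1% of all genes had positive ones). Their median was −0.34, beside 0.16 for all genes. Without overlap 2 were higher and 3 lower, beside 24.1% and 3.53% of all tested genes. Atf4 itself stood at 155.1, 142.6 and 173.1 TPM in libraries labelled TLR4ΔIEC, against 94.4, 126.6 and 106.5 TPM in those labelled WT (log2 fold change 0.53, limma adjusted p = 0.143). Sesn2, a stress-induced inhibitor of mTORC1 signalling, had a log2 fold change of 0.50. The pseudokinase Trib3 had −0.61, and Nupr1, a stress-response gene that is also on the Paneth cell list, had −0.88 (limma adjusted p = 0.240 and 0.112).

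**Figure D4:**
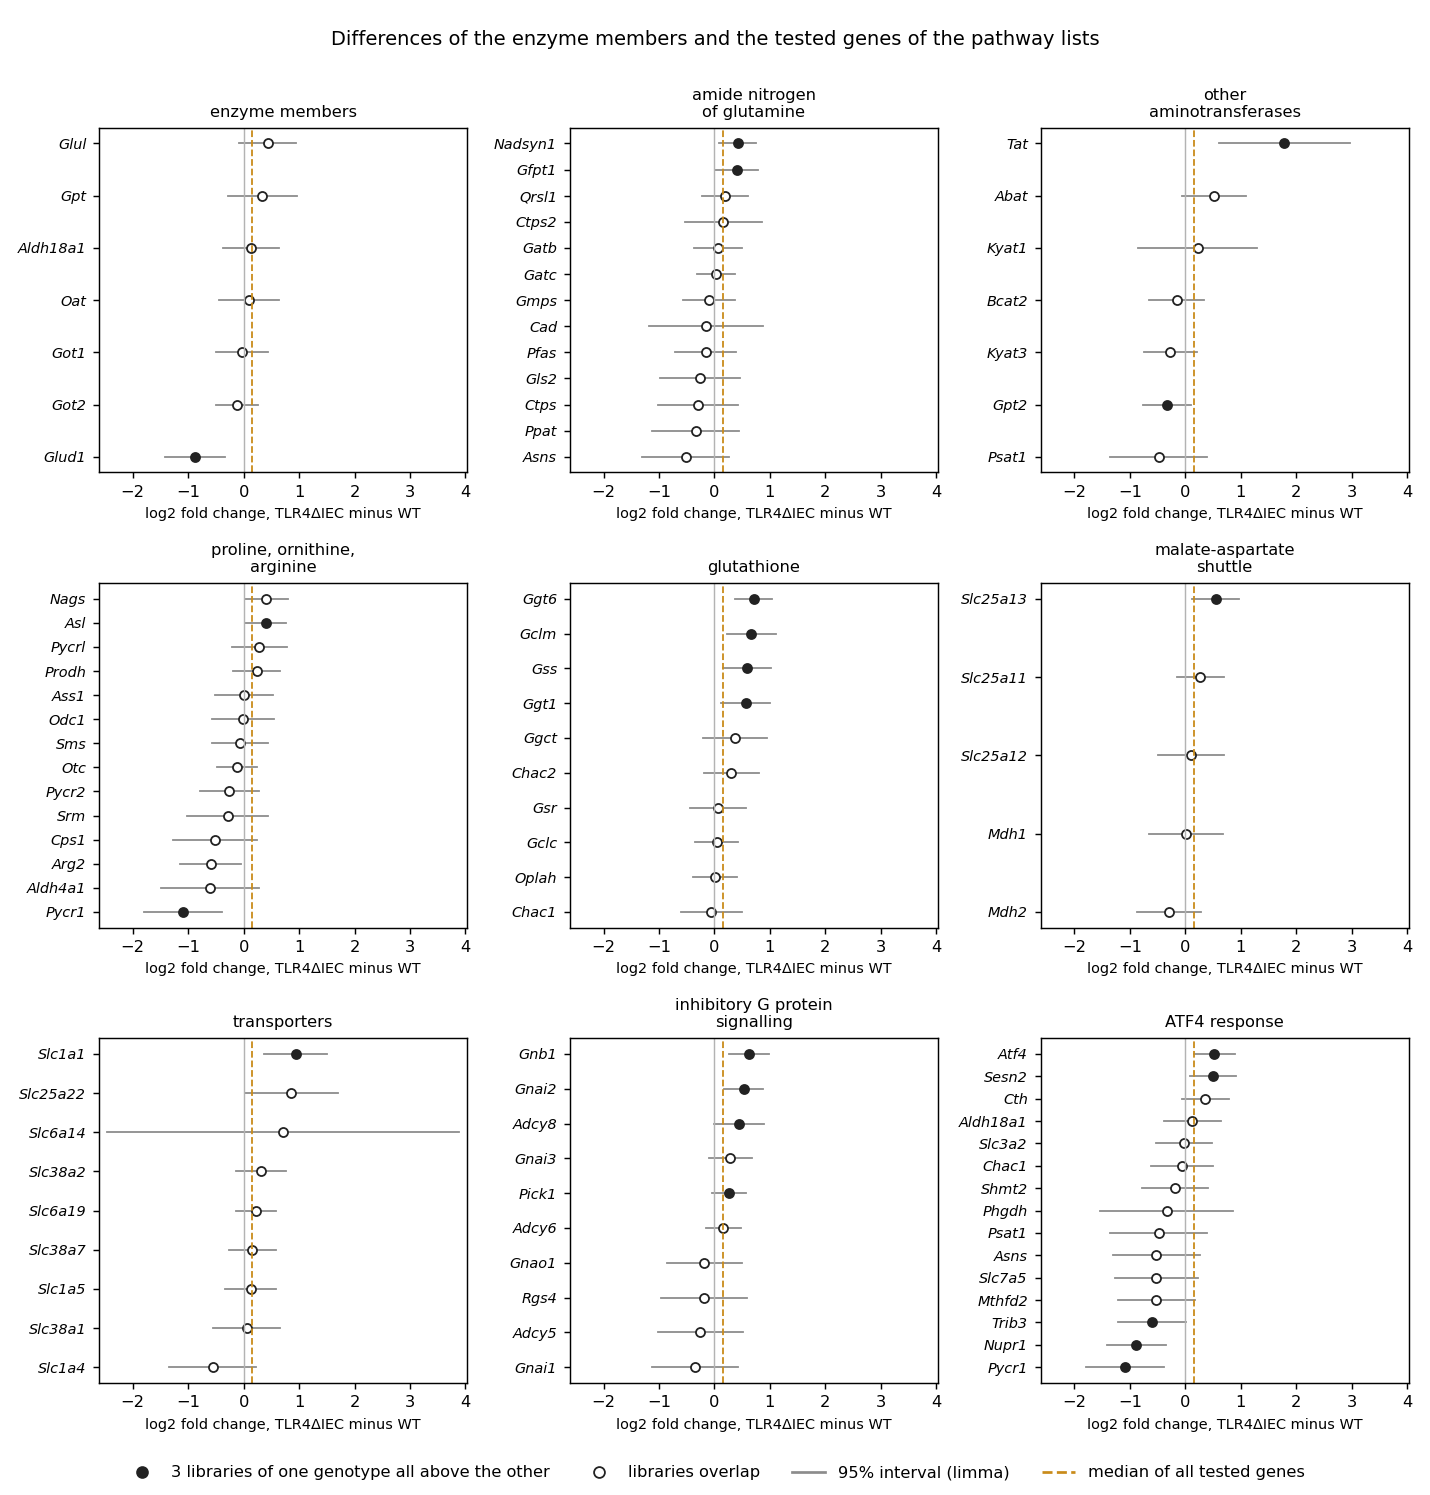
Log2 fold change on the log2(TPM + 1) scale, libraries labelled TLR4ΔIEC minus WT, with 95% limma intervals, for the 7 enzymes and the tested genes of 8 lists. Filled points mark genes whose libraries do not overlap and the dashed line the median of all tested genes, 0.16; Glud1 at −0.88 is the filled point among the enzymes, and 4 of 10 glutathione genes are filled, all to the right of the line.

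The levels of several marker lists differed between the genotypes in the same libraries, though few of their genes passed the test. In whole tissue fewer cells of a type and less RNA per cell cannot be told apart. All 10 markers of the ileum had positive fold changes and 9 did not overlap, at a higher level (24.1% of all genes), though none passed the test (smallest limma adjusted p = 0.0913). At an unadjusted p under 0.05, limma gave 9 of them, all higher, beside 18.4% of all tested genes as higher. Their summed level was 14096, 41442 and 30018 TPM in libraries labelled TLR4ΔIEC, against 5279, 7552 and 9952 TPM in those labelled WT. Of 9 markers of the proximal small intestine, 8 were tested, 6 of them lower and 1 higher without overlap (3.53% and 24.1% of all genes). Fabp1, a fatty acid binding protein of that list, stood at 8.50, 17.4 and 72.3 TPM, against 361.4, 797.4 and 114.9 TPM. Lct and Gata4, lactase and a regional transcription factor, passed the test as lower. Slc40a1 was higher, at 18.6, 18.1 and 34.8 TPM in libraries labelled TLR4ΔIEC, against 8.87, 6.38 and 6.91 TPM in those labelled WT. The summed level of the proximal list was 538.2, 873.5 and 873.7 TPM, against 1046, 1442 and 598.0 TPM, and overlapped. Ces2e, a gene of that list with a positive fold change, made up most of the sum in libraries labelled TLR4ΔIEC. It stood at 490.9, 784.6 and 747.8 TPM there, against 497.3, 371.2 and 350.7 TPM in those labelled WT. The overlap of the sums therefore does not describe the other genes of the list. The part of this regional difference in the levels of Grm4, Glud1 and the other members was not tested. Region is not labelled, and most of these regional markers split the 6 libraries by genotype, so region and genotype cannot be told apart.

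Markers of cell types known to carry glutamate receptors were read beside Grm4. The 12 markers of enteric neurons summed to 26.2, 13.9 and 46.5 TPM in libraries labelled TLR4ΔIEC, against 41.9, 29.7 and 28.0 TPM in those labelled WT, so they overlapped. Of the glial genes, the defining Gfap, S100b and Sox10 were at or under 0.83 TPM in every library, and Erbb3, which epithelium also expresses, made up most of that list's sum. The 15 enteroendocrine markers summed to 690.3, 574.2 and 582.6 TPM, against 599.0, 324.4 and 324.3 TPM, and overlapped too. Of the 12 tested genes of that list, Pyy, Sct and Nts were higher and Gip lower without overlap, beside 24.1% and 3.53% of all tested genes. The pan-endocrine Chga stood at 37.1, 12.2 and 11.7 TPM, against 36.8, 34.1 and 30.1 TPM. The part of any of these cells in the level of Grm4 was not tested.

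Among other cell types, the 7 goblet cell markers summed to 19170, 27131 and 18312 TPM in libraries labelled TLR4ΔIEC, against 13561, 12216 and 12643 TPM in those labelled WT, without overlap. The 8 Paneth cell markers summed to 39120, 8862 and 14893 TPM, against 54470, 57381 and 63388 TPM, also without overlap. Enterocyte markers were abundant throughout, with Vil1 at 856.3 to 1380 TPM over the 6 libraries. Their sum of 10 genes was 21098, 25784 and 24179 TPM against 17448, 20150 and 20478 TPM, without overlap. Anpep and Apoa1 together made up most of that sum in libraries labelled TLR4ΔIEC. Fabp2 went the other way, with means of 3202 TPM in libraries labelled TLR4ΔIEC and 5396 TPM in those labelled WT. In the list 7 genes had positive and 3 negative fold changes. Of these 10 genes, 3 were higher and 1 lower without overlap, beside 24.1% and 3.53% of all tested genes. Smooth muscle markers summed to 343.5, 185.7 and 672.5 TPM against 712.5, 300.0 and 267.4 TPM and overlapped. Of 7 pancreatic acinar markers, Cpa1, Amy2b and Prss2 were at 0 in every library, while Cela1 stood at 6.27 to 14.46 TPM. Of 6 hepatocyte markers, Alb was at or under 0.18 TPM in every library. Ttr, Cyp2e1 and Apoh reached the filter, at 0.97 to 3.39, 0.47 to 6.06 and 0.67 to 2.11 TPM. Hepatocytes express many of the enzymes read here. The remaining lists (tuft, B and plasma, T and NK, and myeloid cells) overlapped in their sums, except that of B and plasma cells, which summed to 287.0, 52.1 and 404.0 TPM against 569.4, 584.1 and 749.7 TPM.

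**Figure D5:**
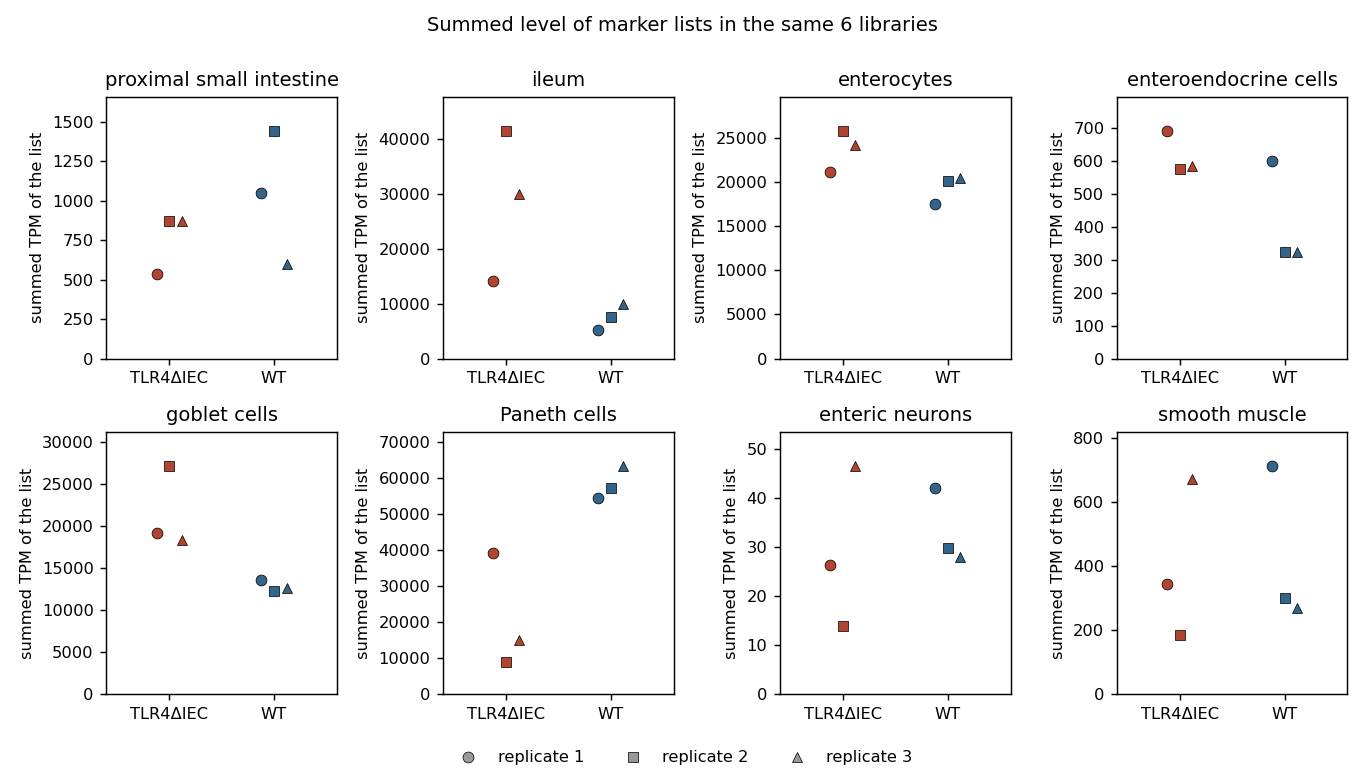
Summed TPM of 8 marker lists in each library, axes from 0, with the 3 libraries labelled TLR4ΔIEC left of the 3 labelled WT. The sums of the ileal, goblet and enterocyte lists are higher and that of the Paneth list lower in each library labelled TLR4ΔIEC. For the ileum they are 14096 to 41442 TPM against 5279 to 9952 TPM. Those of the proximal small intestine, enteroendocrine cells, enteric neurons and smooth muscle overlap. In libraries labelled TLR4ΔIEC, Ces2e makes up most of the proximal sum, and Anpep and Apoa1 together most of the enterocyte sum.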

How the data were processed

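The authors deposited a single TPM table covering every gene in each library. Its headers also name gene length and the authors' group means, which were not used. Tools and build, per the submitters' processing notes, were HISAT, RSEM, fastp and GRCm38.p5; versions, annotation and strand setting are not given in the sources used here. TPM keep no read totals, so no counting interval is given, and without strand, overlapping genes cannot be told apart. Sample titles gave the group and replicate number, and the design text gives 3 mice per genotype. Libraries correlated at 0.939 to 0.977 within and 0.920 to 0.948 between genotypes, so none was a copy of another.

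The 13458 genes averaging 1 TPM or more entered a limma fit (version 3.58.1, R 4.3.3) of log2(TPM + 1) (lmFit, eBayes with an intensity trend, genotype as the single term, two-sided, Benjamini-Hochberg over all genes, threshold 0.05). The fit was checked on simulated data. Fold changes are TLR4ΔIEC minus WT. Ratios were tested by exact permutation in scipy 1.17.1. Members and lists were chosen with earlier results of these data known. Named genes are the members, Tlr4, the members of each list without overlap between genotypes (up to 6), filled to 3 by mean TPM, and the 5 genes most correlated with Grm4; marker genes were named as examples after their values were seen. Ddit3 has 2 entries and was left out. One gene of the lists, with its ratio, is not reported here. Positions are those of GENCODE M21. Alternatives were 2 pseudocounts, 2 filters, 4 scalings, eBayes without trend, array weights, a replicate block and each library left out.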

Additional observations from a re-analysis of the deposited data

How the results depend on the processing

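No label ties a replicate number to a shared animal, and deviations of same-numbered libraries correlated at −0.04, 0.04 and 0.12, so they were not treated as pairs. With a replicate block, 1 of 13458 genes passed, 0 of the 7 enzymes, and Glud1 had an adjusted p of 0.153. The 16 calls over all genes became 7 with a mean of at least 5 TPM, 136 with array weights, and 0 of 26866 with no filter, where limma gave 3377 at an unadjusted p under 0.05; leaving out single libraries gave 0 to 367. They were 0 without WT replicate 2 or TLR4ΔIEC replicate 2 (1681 and 2651 at an unadjusted p under 0.05), 3 without WT replicate 3, 5 without TLR4ΔIEC replicate 3, 32 without WT replicate 1 and 367 without TLR4ΔIEC replicate 1. That last setting alone called list genes: Pycr1, Gclm and Gnb1, 1 each in the proline, ATF4, glutathione and G protein lists (0 to 1 over libraries left out).

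No alternative called any of the 7 enzymes. Those without overlap numbered 2, Glud1 and Got2, under median-of-ratios scaling and without alpha-defensin (Defa), mitochondrial and Rn18s genes. They numbered 1 to 2 with libraries left out, Glud1 always among them. The share of all genes without overlap is given for TPM as deposited only, so these counts cannot be read against a share. The log2 fold change of Grm4 was 3.58 with a pseudocount of 0.1 TPM, 0.80 with 5 TPM and 2.20 without the 20 highest genes. Of 34 named genes in the fits besides Tlr4 and Grm4, 27 kept their direction under every alternative and 3 passed the threshold under any.

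Signs that changed, in the order median-of-ratios, quantile, without the 20 highest genes, and without Defa, mitochondrial and Rn18s genes, were −0.052, −0.089, −0.075 and −0.225 for Oat, −0.015, −0.16, −0.039 and −0.186 for Aldh18a1, and −0.138, −0.226, −0.161 and −0.311 for Mdh1. With array weights Aldh18a1 had −0.026 and Mdh1 −0.103. Grik5 had −0.048, −0.048 and −0.138 under those scalings but quantile. Slc6a19 had −0.064 with quantile normalization and −0.093 without Defa, mitochondrial and Rn18s genes, where Pick1 had −0.043. The cause was not tested.

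With single libraries left out, log2 fold changes ran from −0.22 to 0.15 for Got1, −0.11 to 0.23 for Oat, −0.026 to 0.31 for Aldh18a1, −0.22 to 0.29 for Mdh1 and −0.10 to 0.29 for Grik5, and differences of log2 ratios from −0.12 to 0.23 for Got1 to Got2 and −0.17 to 0.14 for Oat to Aldh18a1. Under quantile normalization the ratio of Oat to Aldh18a1 differed by 0.076 and the other 3 kept their direction; the other scalings cancel in a ratio, and no pseudocount enters it. The unknown depth limits Grm8, Tas1r3 and other genes below 1 TPM most.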
